A study of Mus musculus with 4 samples.

Results

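The tetraspanins are a family of small membrane proteins, and their mRNAs were followed here in 4 libraries of cultured mouse cells labelled as female germline stem cells. The family was taken as every gene of the deposited table whose symbol was Tspan followed by a number, or was Cd9, Cd37, Cd53, Cd63, Cd81, Cd82 or Cd151, with no filter on its values. This gave 27 of the 55359 genes in the table, each with 1 identifier. The labels place the cells in the ovary of female mice and grow them with leukemia inhibitory factor and the glial cell line-derived, basic fibroblast and epidermal growth factors. The series design speaks of celastrol, a plant triterpenoid, against control at 12 h, but no label says which library received it. Values are therefore given library by library, named 01, 02, 21 and 22 after the titles, without a comparison of conditions. The design text also speaks of triplicates, whereas 4 samples are used here, and no label says whether they came from separate cultures.

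A tetraspanin crosses the membrane repeatedly, carries a large loop outside the cell with conserved cysteines, and is anchored in clusters with other tetraspanins, integrins, immunoglobulin-like partners and proteases. These clusters, called tetraspanin-enriched microdomains, organise adhesion, receptor signalling and the sorting of cargo into small vesicles. In mouse reproduction CD9 is best known from the egg surface, where it is needed for fusion with the sperm, and it has been used as a surface marker of germline stem cells.

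The libraries held 12339636 to 13039541 counts. Each of 6 germ cell markers, Ddx4 and Dazl among them, was at or below 0.12 FPKM in every library, and 2 of the 6 had no count in any. FPKM, the fragment count scaled to exonic length and library depth, is the unit of every level given here. All 4 general leukocyte markers were detected, with a summed level of 240.6 to 272 FPKM, against 77.3 to 84.6 FPKM for 5 fibroblast markers. The mast cell marker Kit was at 58.9, 64.6, 100.7 and 100.3 FPKM in libraries 01, 02, 21 and 22 and Cpa3 at 333, 325, 229 and 247 FPKM, while Fcer1a, Tpsb2 and Mcpt4 had no count. Among the fibroblast markers, Pdgfra was at 9.28, 10.5, 5.97 and 6.36 FPKM. Dcn ran the other way at 20.3, 20.01, 23.1 and 24.1 FPKM. Thy1 was at 10.55, 9.65, 8.57 and 8.03 FPKM, Col1a1 at 28.2, 29.5, 25.9 and 27.3 FPKM and Col1a2 at 14.6, 15.03, 13.8 and 13.15 FPKM. The part of these cell types in the tetraspanin levels was not tested. Epithelial (4 genes), granulosa (4), oocyte (4) and T cell (2) markers reached at most 0.38 FPKM. These are bulk libraries, in which fewer cells of a type and less RNA per cell cannot be told apart.

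The tetraspanins fell into 18 expressed genes and 9 that were under 1 FPKM in every library. The 18 were the same in each library, none lay on both sides of the limit, and the lowest count among them was 49. Over the whole table, 20.1% of genes reached 1 FPKM in all 4 libraries, a share that includes many noncoding genes. The expressed members spanned from Tspan6, with a median of 2.56 FPKM, to Cd63, with a median of 155 FPKM. Their median level was 17.05 FPKM in library 01, 16.7 in 02, 16.9 in 21 and 17.6 in 22, against 8.195 to 8.35 FPKM over the 11874 genes that averaged at least 1 FPKM, called expressed genes from here on.

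**Figure D1:**
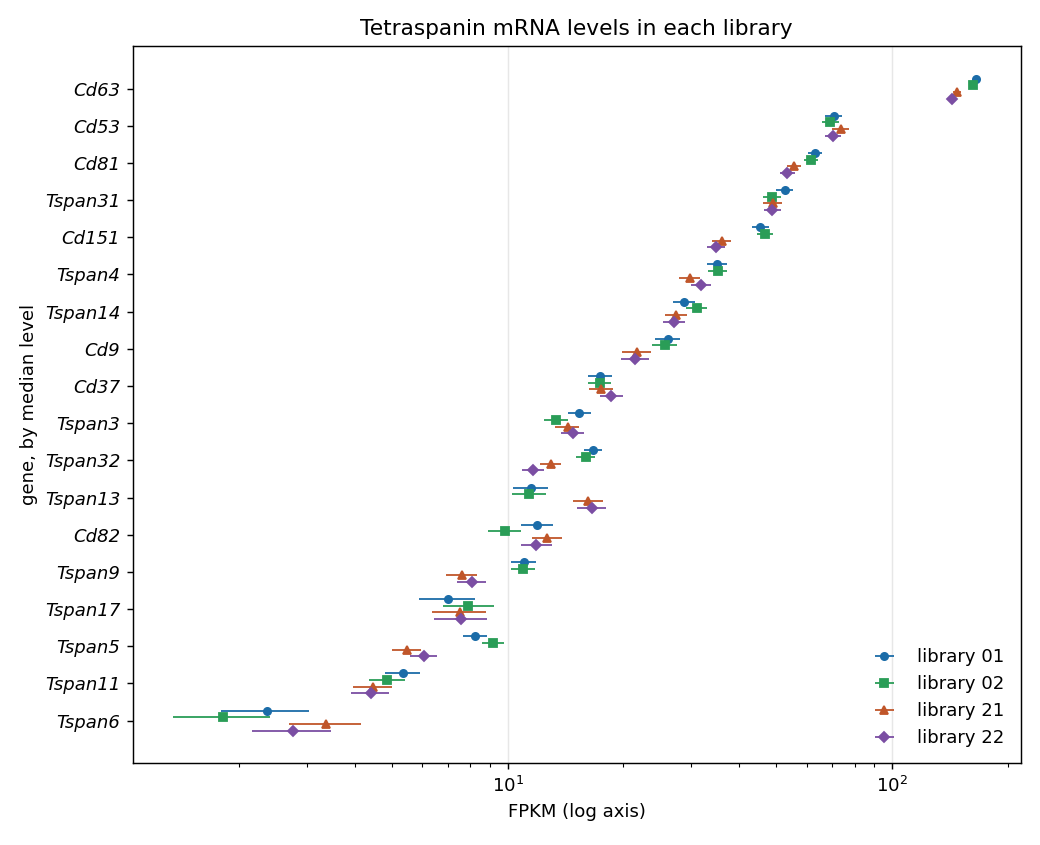
FPKM (log axis) of the 18 expressed tetraspanin genes, 1 point per library, with bars for the exact Poisson 95% interval of the count. Cd63 stands above all others at 143 to 166 FPKM, and Tspan6 is lowest at 1.82 to 3.37 FPKM.

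The family as a whole took up 596, 585, 544 and 534 FPKM in libraries 01, 02, 21 and 22. As a share of counts this was 0.184%, 0.180%, 0.164% and 0.161%, with Wilson 95% intervals of 0.182% to 0.186%, 0.178% to 0.183%, 0.162% to 0.166% and 0.159% to 0.164%. The intervals of 01 and 02 overlapped, as did those of 21 and 22, and both 21 and 22 lay below 01 and 02. The leading genes, Cd63, Cd53, Cd81, Tspan31 and Cd151, held 66.8%, 66.6%, 66.6% and 65.6% of the summed tetraspanin FPKM, and Cd63 alone held 27.9%, 27.8%, 27.2% and 26.8%.

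The vesicle markers Cd9, Cd63 and Cd81, whose proteins are standard labels of small extracellular vesicles, were all expressed. Cd63 (ENSMUSG00000025351, chromosome 10, 128736858 to 128748691 on the plus strand, in deposited coordinates whose build is not stated) encodes the tetraspanin of late endosomes, lysosomes and secretory granules. It measured 166 FPKM in library 01, 163 in 02, 148 in 21 and 143 in 22, from 7539, 7817, 6750 and 6766 counts. This put it between rank 255 and rank 308 of all genes in the table. The intervals of 01 (162 to 170 FPKM) and 02 (159 to 166 FPKM) lay above those of 21 (144 to 152 FPKM) and 22 (139.6 to 146 FPKM). Of the 100-base stretches of Cd63 transcripts, 95.2% were found in no other gene and the rest in a pseudogene listed as Cd63-ps, which carried 513, 605, 523 and 500 counts, or 6.37% to 7.19% of the counts of both. How the authors' counting divided reads between them is not stated.

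Cd81 (ENSMUSG00000037706, chromosome 7, 142606476 to 142621671 on the plus strand), a partner of immunoglobulin-like membrane proteins, was next among the vesicle markers. It had 63.3 FPKM in library 01, 61.6 in 02, 55.7 in 21 and 53.5 in 22. Libraries 01 and 02 were again higher, and their Poisson intervals did not overlap those of 21 and 22. Cd9 (ENSMUSG00000030342, chromosome 6, 125437229 to 125471754 on the minus strand) was the lowest of the vesicle markers and eighth in the family, with 658, 683, 549 and 563 counts. Its levels of 26.1, 25.6, 21.7 and 21.4 FPKM had intervals of 24.1 to 28.2, 23.7 to 27.6, 19.9 to 23.6 and 19.7 to 23.3 FPKM. The intervals of 01 and 02 were above those of 21 and 22, and the highest library exceeded the lowest 1.22-fold. The proportions of these genes moved little: Cd63 was 6.36, 6.35, 6.83 and 6.67 times the level of Cd9 per length, and Cd81 was 2.42, 2.40, 2.57 and 2.495 times.

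The spread of a gene over the libraries was measured as its log2 range, the highest minus the lowest log2(FPKM + 1). Ranges of the 18 expressed tetraspanins ran from 0.09 to 0.65 with a median of 0.24, beside a median of 0.27 over the 11874 expressed genes. A range of 0.5 or more was reached by 3 of 18 members, Tspan5, Tspan6 and Tspan13, beside 17.3% of those genes. That number was 1 without library 02, and 5 with a pseudocount of 0.1 FPKM in place of 1 FPKM. The Poisson intervals of the lowest and highest library did not overlap for 12 of 18 members, beside 56.8% of those genes, a share not matched for level. Set against that background, neither count marked the family as a whole.

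**Figure D2:**
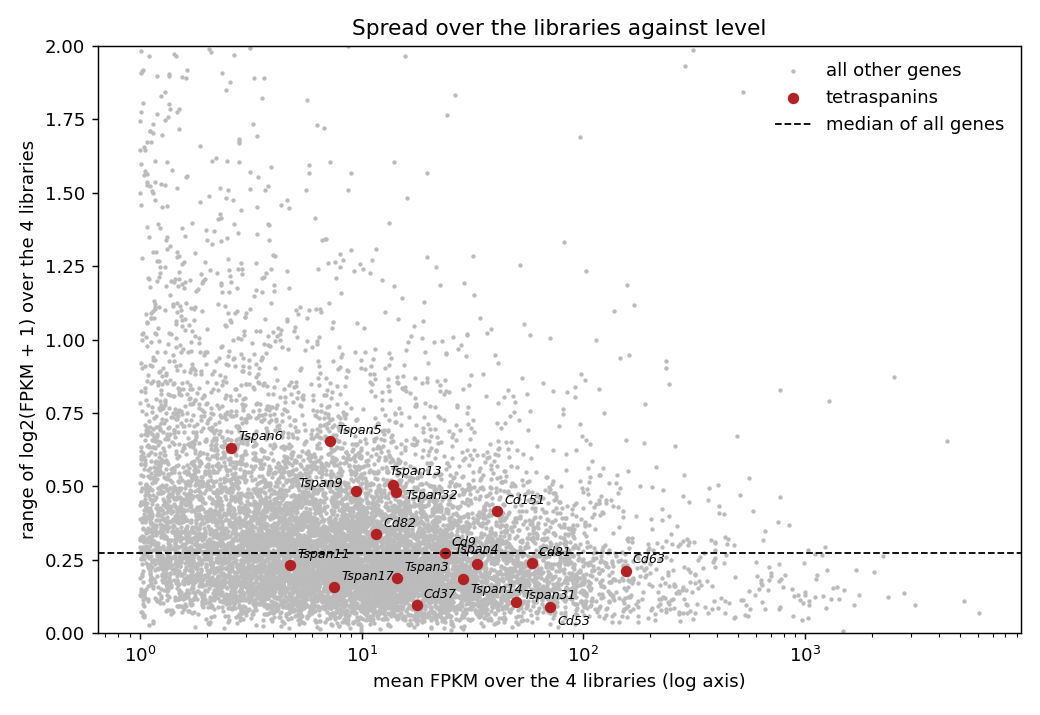
Range of log2(FPKM + 1) over the 4 libraries against mean FPKM (log axis), with the 18 expressed tetraspanins in red and the other expressed genes in grey. The tetraspanins lie on both sides of the all-gene median of 0.27, from Cd53 at 0.09 to Tspan5 at 0.65, and 76 genes with ranges above 2 lie outside the axis.

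Because Tspan5 was higher in 01 and 02 and Tspan13 in 21 and 22, and each has 1 promoter entry, their upstream sequences are shown with those of Cd9 and Cd63. The 250 bases before the RefSeq transcription start in GRCm38.p6 are printed 5′ to 3′ on the strand of the gene. Capitals mark the motifs that a search of both strands found, out of TATAAA (a core promoter box), GGGCGG (GC box), CACGTG (E-box), AGGAAG (a core bound by ETS factors) and TGACNNNGC (antioxidant response core). The windows lie at chr6:125494761-125495010 (Cd9, minus strand), chr10:128909095-128909344 (Cd63, plus), chr3:138741958-138742207 (Tspan5, plus) and chr12:36042479-36042728 (Tspan13, minus). These positions do not line up with the deposited coordinates of the same genes, which are in another build.
Cd9: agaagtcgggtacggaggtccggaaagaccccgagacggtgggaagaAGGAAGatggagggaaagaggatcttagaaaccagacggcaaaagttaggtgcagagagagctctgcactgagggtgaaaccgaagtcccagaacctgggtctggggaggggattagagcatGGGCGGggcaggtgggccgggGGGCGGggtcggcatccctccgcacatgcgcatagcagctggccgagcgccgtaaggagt
Cd63: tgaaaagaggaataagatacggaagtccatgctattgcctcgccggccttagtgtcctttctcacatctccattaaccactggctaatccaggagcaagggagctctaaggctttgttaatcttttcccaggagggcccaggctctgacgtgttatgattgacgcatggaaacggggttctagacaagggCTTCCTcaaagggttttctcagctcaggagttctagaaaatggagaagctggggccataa
Tspan5: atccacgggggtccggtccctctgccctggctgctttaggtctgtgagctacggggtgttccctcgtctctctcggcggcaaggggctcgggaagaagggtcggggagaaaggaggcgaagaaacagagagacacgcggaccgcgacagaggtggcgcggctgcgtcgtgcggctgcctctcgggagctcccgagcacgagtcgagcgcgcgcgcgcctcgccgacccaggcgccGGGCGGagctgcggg
Tspan13: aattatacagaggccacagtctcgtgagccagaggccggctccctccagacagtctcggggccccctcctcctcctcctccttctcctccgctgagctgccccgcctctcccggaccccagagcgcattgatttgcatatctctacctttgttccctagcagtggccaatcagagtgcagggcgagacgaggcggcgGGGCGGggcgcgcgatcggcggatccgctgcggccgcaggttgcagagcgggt

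A GC box was present in the windows of Cd9, Tspan5 and Tspan13 but not in that of Cd63, and the AGGAAG core in those of Cd9 and Cd63. The Tspan5 window held 33 CpG dinucleotides, that of Tspan13 21, that of Cd9 16 and that of Cd63 6, beside a median of 6 over all promoter windows. Promoter entries were found for 26 of the 27 members, Tspan18 being the one without. Over the 27 windows of the 18 expressed members, GGGCGG was in 13 (48.1%, beside 32.7% of all 32851 promoter windows) and AGGAAG in 11 (40.7%, beside 29.5%). CACGTG was in 2 windows (7.41%, beside 6.02%), TGACNNNGC in 1 (3.70%, beside 10.2%) and TATAAA in 0 (beside 12.4%). The set of all promoter windows includes genes not expressed here. In the 9 windows of 8 members under 1 FPKM, GGGCGG was in 3 (33.3%) and AGGAAG in 1 (11.1%). There TGACNNNGC was in 2 (22.2%), TATAAA in 1 (11.1%) and CACGTG in 0. The median CpG number was 8 over the windows of expressed members and 12 over those of members under 1 FPKM. Some genes had several windows, so windows are not independent, and a match describes letters and not binding.

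Tspan5 belongs to the TspanC8 tetraspanins, which bind the sheddase ADAM10 and carry it from the endoplasmic reticulum to the cell surface. It had 8.23, 9.17, 5.46 and 6.05 FPKM from 750, 884, 500 and 574 counts. Its range of 0.65 was the widest of the family with a pseudocount of 1 FPKM, but Tspan6 was wider with one of 0.1 FPKM (0.85 against 0.74). Library 02 was highest and 21 lowest, a 1.68-fold difference, and the intervals of 01 (7.65 to 8.84 FPKM) and 02 (8.58 to 9.80 FPKM) were above those of 21 (4.99 to 5.96 FPKM) and 22 (5.56 to 6.56 FPKM). The most abundant TspanC8 gene was Tspan14, with 28.8, 31.02, 27.5 and 27.2 FPKM and a range of 0.19. Its level was near the same in 01, 21 and 22 and somewhat higher in 02, whose interval was clear of that of 22 alone. Tspan17 had 6.99, 7.91, 7.5 and 7.56 FPKM, with intervals that overlapped among all libraries. Tspan5 was 0.286, 0.296, 0.199 and 0.223 times the level of Tspan14 per length, lower in 21 and 22 than in 01 and 02.

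The remaining TspanC8 genes were scarcely detected. Tspan33, known from red cell precursors and B cells, had 17, 21, 4 and 6 counts, or 0.27, 0.31, 0.06 and 0.09 FPKM. The intervals of library 02 (0.192 to 0.474 FPKM) and library 21 (0.0169 to 0.159 FPKM) did not overlap, at a level below the 1 FPKM limit. Tspan15, an ADAM10 partner of many epithelial cells, had 2 to 6 counts per library, and Tspan10, known from the pigmented cells of the eye, had 1 count in all. Adam10 itself was at 34.1, 38.1, 30.4 and 31.03 FPKM, a range of 0.31, with 02 highest and 21 lowest as for Tspan5.

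The leukocyte tetraspanins Cd37, Cd53 and Tspan32 were expressed in all 4 libraries. Cd53 (ENSMUSG00000040747, chromosome 3, 106667237 to 106697465 on the minus strand), which is found on nearly all white blood cells, was the second most abundant member at 70.6, 69.2, 73.6 and 70.3 FPKM. Its range of 0.09 was the narrowest of the 18, and the intervals of all libraries overlapped. Cd37, best known from B cells, followed the same flat course at 17.4, 17.4, 17.5 and 18.6 FPKM, a range of 0.09. Tspan32, a gene of blood cells located beside Cd81, took another course with 16.7, 15.96, 12.95 and 11.7 FPKM from 1285, 1297, 1000 and 935 counts. Libraries 01 and 02 were higher than 21 and 22, with a 1.43-fold difference between the extremes. The general leukocyte markers (Ptprc, Spi1, Laptm5 and Coro1a) summed to 240.6, 242, 266 and 272 FPKM and the macrophage markers (Adgre1, Csf1r, Cd68 and Itgam) to 243.7, 246, 109.5 and 109.6 FPKM. Most of the macrophage sum was Adgre1 alone, at 218, 220, 97.7 and 96.25 FPKM, with Cd68 at 25.3, 25.5, 11.7 and 13.25 FPKM. Of these macrophage markers, Csf1r and Itgam were at or below 0.15 FPKM. The part of either cell type in the tetraspanin levels was not tested.

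Cd151 and Tspan11, close relatives in sequence, represent the tetraspanins that bind laminin-binding integrins. Cd151 (ENSMUSG00000025510, chromosome 7, 141047305 to 141051386 on the plus strand) had 45.5, 46.9, 36.1 and 34.9 FPKM, from 1539, 1676, 1226 and 1229 counts. The intervals of 01 and 02 were above those of 21 and 22, and the highest library exceeded the lowest 1.34-fold. Tspan11 had 5.34, 4.85, 4.46 and 4.4 FPKM, with 01 highest and 22 lowest but intervals that overlapped. Cd82, described as a suppressor of metastasis in human tumours, had a different order at 11.95, 9.83, 12.7 and 11.9 FPKM. Library 02 alone was low, and its interval (8.87 to 10.9 FPKM) was clear of those of 01 and 21.

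Tspan13 was higher in libraries 21 and 22. It had 11.5, 11.4, 16.2 and 16.6 FPKM from 351, 367, 497 and 526 counts, so that 21 and 22 were higher than 01 and 02 and the intervals of 02 (10.2 to 12.6 FPKM) and 22 (15.2 to 18.02 FPKM) lay apart. Its range was 0.50. Tspan6, an X-linked member and the lowest expressed one, had 60, 49, 86 and 73 counts, or 2.36, 1.82, 3.37 and 2.76 FPKM. Library 02 was lowest and 21 highest, a range of 0.63, and these were the only libraries whose intervals (1.35 to 2.41 and 2.70 to 4.16 FPKM) did not overlap. In the other pairs the intervals overlapped, which is not a test and does not show equal levels.

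Tspan4 and Tspan9 are known from migrating cells and from platelets, respectively. Tspan9 had 11.03, 10.98, 7.59 and 8.07 FPKM from 677, 712, 468 and 516 counts, a range of 0.49. Libraries 01 and 02 were close to each other and above 21 and 22 without overlap of intervals. Tspan4, whose protein marks the migrasomes left behind by moving cells, had 35.2, 35.2, 29.8 and 31.8 FPKM, with 21 clear of 01 and 02 and 22 overlapping all. Among platelet and megakaryocyte markers, Itga2b was at 42.5, 40.7, 43.1 and 44.2 FPKM, Pf4 at 2.02 to 5.17 FPKM and Gp9 had 1 count in all. Tspan3 was at 15.4, 13.4, 14.3 and 14.8 FPKM, with overlapping intervals in every pair.

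Tspan31, which lies beside the cell cycle kinase gene Cdk4 and is amplified with it in human sarcomas, was the fourth most abundant member at 52.6, 48.9, 48.9 and 48.9 FPKM. The genes run on opposite strands and their spans overlap by 641 bases in the deposited coordinates. Only 76.3% of the 100-base stretches of Tspan31 transcripts were free of matches in another gene, all of the shared ones being in Cdk4. Cdk4 was at 97.7, 93.1, 116 and 109.5 FPKM, and the sources used here do not say whether counting used the strand, so the level of Tspan31 is uncertain. Other members were less affected: Tspan4 had 91.3% of its stretches free of matches, Cd9 93.9%, Cd63 95.2% and the other expressed members at least 97.03%. Cd9 is also overlapped on the other strand by Gm28809, which had 23 to 38 counts.

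The 9 members under 1 FPKM include those known mainly from epithelium, nerve, eye and vessel. Tspan7, a gene of neurons, came closest to the limit at 0.58, 0.43, 0.37 and 0.35 FPKM from 51, 40, 32 and 32 counts, with overlapping intervals. Tspan2, known from the myelinating cells of the brain, had 1, 1, 3 and 6 counts, and Tspan18, known from endothelium, had 0, 1, 5 and 4. Tspan12, the partner of the Norrin receptor FZD4 in retinal vessels, had a single count although Fzd4 was at 6.95 to 8.3 FPKM. The epithelial genes Tspan1 and Tspan8 had no count in any library, where a floor of 3 counts corresponds to at most 0.104 FPKM of Tspan1 and 0.143 FPKM of Tspan8. Tetraspanins with other names, which the choice of members left out, added little: Rom1, a photoreceptor disc gene, was at 2.67, 3.03, 1.81 and 2.15 FPKM, Upk1a and Upk1b were under 0.5 FPKM and Prph2 had no count.

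In the order of levels, few neighbours had separate intervals in every library. Of 17 neighbouring pairs among the 18 expressed members, 3 had separate Poisson intervals in all 4 libraries (Cd63 over Cd53, Cd53 over Cd81, and Tspan32 with Tspan13, which changed places between libraries). The other 14 overlapped in at least 1 library, and 0 of the 17 overlapped in all 4. Below the expressed set, Tspan6 was separate from Tspan7 in every library. Tspan33 and Tspan15 overlapped in 2 libraries, and each neighbouring pair among the 7 members from Tspan15 down overlapped in all 4.

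Differences between pairs of libraries depended on the pair. Between 01 and 02 the Poisson intervals did not overlap for 1 of 18 members, Cd82, beside 10.6% of expressed genes, and between 21 and 22 for 0 of 18, beside 7.2%. Between 01 and 21 this was 9 members (beside 32.6%), between 01 and 22 it was 8 (33.7%), between 02 and 21 it was 11 (34.2%) and between 02 and 22 it was 9 (34.9%). Cd9, Cd63, Cd81, Cd151, Tspan5, Tspan9 and Tspan32 were lower without overlap, and Tspan13 higher, in the second library of each of these last 4 pairs. The median difference of the 18 members on the log2(FPKM + 1) scale was −0.13, −0.12, −0.12 and −0.13 for those pairs in the same order, second minus first library, beside medians between −0.01 and 0.01 over all expressed genes. These pairs reuse the same 4 libraries and are not independent of each other. Poisson intervals are narrower, relative to the level, at higher counts, and the 18 members had a higher median level than the expressed genes. The shares of expressed genes without overlap were not matched for level, so no family trait is read from them. By library, 8 of 18 members were highest in 01, 5 in 02, 3 in 21 and 2 in 22, while 23.9% to 26.4% of expressed genes were highest in each. Of the 18, 7 were lowest in 02, as many as in 22, with 3 in 21 and 1 in 01, while 23.7% to 25.9% of expressed genes were lowest in each.

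**Figure D3:**
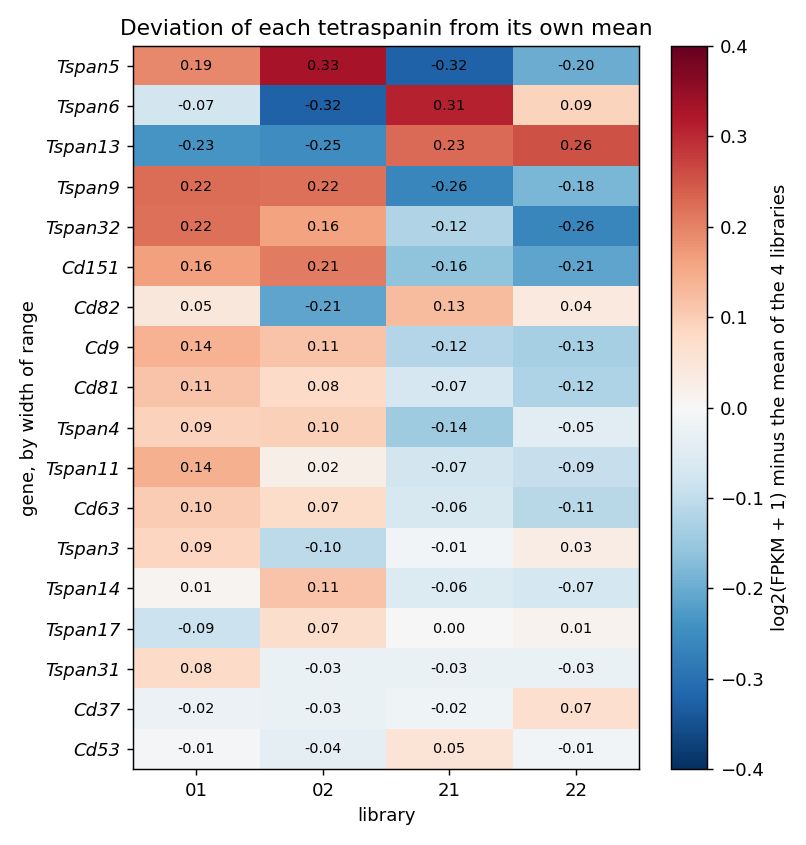
Log2(FPKM + 1) of each expressed tetraspanin minus its mean over the 4 libraries (colour and printed value), with libraries in columns and genes ordered by range. Tspan5 runs from 0.33 in library 02 to −0.32 in 21 and Tspan13 from −0.25 in 02 to 0.26 in 22, while Cd53 stays within −0.04 to 0.05.

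Several members lie next to each other in the genome, in deposited coordinates. Cd151 and Tspan4 are 3.77 kb apart on chromosome 7 on the same strand with 1 gene, Polr2l, between them, and both were lower in 21 than in 01 and 02. Tspan32 and Cd81 are 33.1 kb apart on chromosome 7 on the same strand with no listed gene between them, and both were lower in 21 and 22 than in 01 and 02. Tspan11 and Tspan9 are 7.42 kb apart on chromosome 6 on opposite strands, at ranges of 0.23 and 0.49. Cd82 was expressed, whereas Tspan18, 84.6 kb away on chromosome 2, had 0 to 5 counts.

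Genes of tetraspanin partners were expressed in part. Of 18 partners, 11 reached 1 FPKM in every library and 5 in none. The 12 that averaged at least 1 FPKM had a median log2 range of 0.23, beside 0.27 for all expressed genes. The highest were Itgb1, the shared integrin beta chain, at 113, 115, 115 and 118 FPKM, Adam10 as given above, and Igsf8, an immunoglobulin-like partner of CD9 and CD81, at 17.3, 17.3, 15.7 and 14.8 FPKM. Hbegf, a growth factor whose membrane form binds CD9, had the widest range, 0.63, at 14.6, 14.7, 10.2 and 9.11 FPKM. Libraries 01 and 02 were higher for Hbegf, and 1 of the 12 partners reached a range of 0.5, beside 17.3% of expressed genes. The lineage-bound partners Epcam and Cr2 were at or below 0.16 FPKM, and Cldn1 and the egg gene Izumo1r had no count.

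Genes that form small vesicles were mostly expressed. Of 10 genes, 9 reached 1 FPKM in every library, with a median range of 0.19 and 0 of 9 at 0.5 or more, beside 0.27 and 17.3% for all expressed genes. For 7 of the 9 the intervals of the lowest and highest library did not overlap, beside 56.8% of expressed genes, a share not matched for level. Pdcd6ip, which encodes the ESCRT adaptor ALIX, was at 45.1, 43.7, 46.9 and 46.5 FPKM, Rab27b, a GTPase gene of vesicle docking, at 38.6, 38.2, 40.2 and 41.2 FPKM, and Vps4a at 38.98, 36.7, 34.5 and 36.04 FPKM. Sdc4 had the widest range of this list, 0.28, at 11.6 to 14.3 FPKM, and Smpd3 was at most 0.12 FPKM. The enzymes that attach palmitate to tetraspanins were all expressed. Zdhhc2, which acts on CD9 and CD151, had the widest range of these 3, 0.45, at 3.64, 3.4, 4.35 and 5 FPKM, with 21 and 22 the higher libraries. Zdhhc3 was at 8.55, 9.96, 10.7 and 10.2 FPKM and Zdhhc7 at 9.31 to 10.8 FPKM.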

How the data were processed

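RNA of the 4 libraries was extracted with Trizol, selected for poly(A), randomly primed and sequenced in pairs, per the labels' protocols. The deposited table gives each gene a count, which the authors did not normalise judging from whole numbers with different totals, and an FPKM value, which the file headers show the authors supplied. The deposited FPKM was regained from counts, exonic size and library totals for 100% of values, to rounding. The submitters' processing notes list FastQC, HISAT2 and DESeq2 without version or role. No source used here names the read counter, strand setting, genome build or annotation.

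No library has a condition in the labels, so no test was run. Exact Poisson 95% intervals of counts, converted to FPKM, and Wilson 95% intervals of shares cover counting error only. They leave out variation between cultures and library preparations. They can be too narrow even for counting error, since PCR copies are not independent molecules. The log2 range used a pseudocount of 1 FPKM, which understates the fold of low genes, and genes averaging at least 1 FPKM. Shares and medians over all expressed genes were not matched for level to the members or lists beside them. The range calculation was tested on simulated data. The 100-base stretches came from GENCODE M21 transcripts matched by gene identifier, which may not be the authors' annotation, and promoters from RefSeq (GRCm38.p6) matched by symbol. The deposited coordinates are not those of GRCm38.p6. The deposited Cd63 span starts at 128736858, whereas its promoter window ends at 128909344. Protein sequences were not used here. Numbers were computed with Python 3.11.15, numpy 2.4.6, pandas 2.3.3 and scipy 1.17.1.

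Every member with a mean of 1 FPKM or more is named with values, and of the partner, vesicle and enzyme lists the 3 highest and the widest in range. Further genes named were picked once their values were known. The members and lists were chosen with earlier results of these data known. The alternatives were other detection limits, pseudocounts, scalings and filters, and leaving out each library.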

Additional observations from a re-analysis of the deposited data

How the results depend on the processing

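The number of tetraspanins detected in every library was 17 to 19 under each alternative (18 as reported), and their median log2 range was 0.22 to 0.27 (0.24 as reported). The number with a range of 0.5 or more was 3 as reported and 5 with a pseudocount of 0.1 FPKM. It was 1 to 3 when each library was left out in turn, the lowest without library 02. Median-of-ratios size factors left this number at 3, and a common FPKM sum gave 4. The common sum raises every value while the pseudocount and detection limit stayed at 1, so both weigh less on that scale. Its results therefore mix rescaling with a lower pseudocount and limit. Rescaling every library to the same FPKM sum (TPM) turned the summed tetraspanin level into 1766, 1769, 1617 and 1599 on that scale in libraries 01, 02, 21 and 22, by construction of the scale, with 21 and 22 still below 01 and 02. The range of each of the 18 expressed tetraspanins moved by less than its counting error under another pseudocount or scaling, in 72 recalculations. These reuse the same counts, so such small shifts were likely beforehand and do not show that the choice is without effect. The range of Tspan6 went from 0.63 to 0.85 with a pseudocount of 0.1 FPKM. Tspan6 passed Tspan5 as the widest with pseudocounts of 0.1 and 0.5 FPKM (0.74 against 0.70 at 0.5) and with a common FPKM sum (0.76 against 0.74). The size factors differed from library depth by at most 0.014 on the log2 scale. No paired analysis was possible because no library has a group in the labels. Genes with under 100 counts, such as Tspan6 and Tspan33, have wide intervals, and differences between conditions could not be assessed.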

Other observations

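The 4 libraries, which the labels put in no group, were not equally far apart in the tetraspanin values. The mean absolute difference of log2(FPKM + 1) over the 18 expressed tetraspanins was 0.07 between libraries 21 and 22 and 0.09 between 01 and 02. It was 0.23 between 01 and 21, 0.21 between 01 and 22, 0.25 between 02 and 21 and 0.24 between 02 and 22. Over all 11874 genes that averaged at least 1 FPKM the same measure was 0.13 between 21 and 22, 0.14 between 01 and 02, and 0.23 in each of the other pairs. These genes had a lower median level than the 18 tetraspanins, and counting error is relatively larger at low counts. The measures are therefore not matched for level. The summed level of Cd9, Cd63 and Cd81 was 255, 250.03, 225 and 218 FPKM in libraries 01, 02, 21 and 22, and that of the leukocyte tetraspanins Cd37, Cd53 and Tspan32 was 105, 102.5, 104 and 101 FPKM.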
